A study of Mus musculus with 16 samples.

Results

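Cathepsins are the proteases of the lysosome, the acidic compartment in which macrophages degrade engulfed cells, lipoproteins and matrix. Most are cysteine proteases of the papain family that are made as inactive precursors and activated at low pH, while cathepsin D is an aspartic protease and cathepsin A a serine carboxypeptidase. Adipose tissue macrophages (ATMs), which gather round dying adipocytes in obesity and take up their lipid, are known for a large lysosomal compartment. The genes described here are Ctsa, Ctsb, Ctsc, Ctsd, Ctsh, Ctsk, Ctsl, Ctss and Ctsz, chosen by gene name from the cathepsin family, and they are 9 of the 37310 genes counted. All 9 passed the filter on low counts in every comparison, with between 32 and 29293 reads per gene and library.

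F4/80+ ATMs were sorted from epididymal fat of male mice, aged between 7 and 10 weeks when the experiments began, and their total RNA was sequenced. IRF5-KO mice carry floxed Irf5 alleles and LysM-Cre, a Cre recombinase inserted into the Lyz2 gene that is active in macrophages, neutrophils and some other myeloid cells, and they were set beside wild-type (WT) mice, for which the sources used here do not say whether they carry Cre or the floxed alleles. Both genotypes received a high-fat diet (HFD) for 4 weeks (short term, ST-HFD) or 12 weeks (long term, LT-HFD), with 4 libraries in each of the 4 groups. Levels are given as CPM, the deposited read counts scaled to a common library size with TMM factors, and groups were compared in edgeR by its quasi-likelihood test, with p-values adjusted over all genes tested. A gene was called at an adjusted p under 0.05.

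Libraries held 3279332 to 4958131 counts, with every LT-HFD library below every ST-HFD one. The 3 most counted features (mmu-mir-689-2, mt-Rnr2, mt-Rnr1) took 18.6% to 24.1% of the counts in ST-HFD and 26.1% to 34.5% in LT-HFD libraries. Depth and this share thus differ with duration, and their part in the duration results was not tested. Adgre1, which encodes F4/80, was present in every library at 507 to 995 CPM. Irf5 counts did not drop where the label is IRF5-KO, at 203 to 252 CPM in WT and 250.4 to 274 CPM in IRF5-KO on ST-HFD, and at 170.5 to 213 CPM and 206 to 253 CPM on LT-HFD, and a total per gene cannot show the loss of single exons. Lyz2, the locus that carries Cre, was lower in every library labelled IRF5-KO (1396 to 2062 CPM) than in any WT library (2968 to 4043 CPM). A plot of Irf5 against Ghitm in the study, compared by eye, draws the libraries labelled 4 weeks as the long diet and those labelled 12 weeks as the short diet. By the labels Irf5 was lower on LT-HFD, by a log2 fold change of -0.24 over both genotypes (edgeR adjusted p = 0.0139). Durations below follow the sample labels, so the direction of every change with duration rests on them.

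Short stretches of promoter sequence introduce the genes, taken from RefSeq on GRCm38.p6 for the 7 of 9 genes matched in the promoter table. Ctsb and Ctsh had no entry. The motif CACGTG, which is its own reverse complement, is the letter core bound by the MiT/TFE factors (Tfeb, Tfe3, Mitf and Tfec) that control many lysosomal genes. It was chosen for display after these data were seen, and its part in the levels of the genes was not tested. In the 250 bases before the start site it was found in Ctsa (second of 2 listed starts), Ctsd (2 matches) and Ctsl, and it stands in 6.02% of 32851 such windows genome-wide. Ctsc, Ctsk, Ctss, Ctsz and the first Ctsa start held none. Each window is 5′ to 3′ on the gene's strand, with CACGTG in capitals:

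Ctsd, chr7:142388057-142388077, minus strand, match 245 bases before the start: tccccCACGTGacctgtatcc

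Ctsd, chr7:142387910-142387935, minus strand, match 98 bases before the start: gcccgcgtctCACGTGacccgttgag

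Ctsl, chr13:64370741-64370766, minus strand, match 236 bases before the start: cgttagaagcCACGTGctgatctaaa

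Ctsa, chr2:164833751-164833776, plus strand, match 12 bases before its second start: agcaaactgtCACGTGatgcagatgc

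The longer form TCACGTG overlaps these matches and was found in Ctsa and Ctsd, against 3.13% of windows, and TCACGTGA in the same genes, against 0.785%. The second motif, GAAA followed by any 2 bases and another GAAA, is the core of the interferon-stimulated response element, to which factors of the IRF family bind, and was searched on both strands because IRF5 is the factor targeted here. Ctss alone among the 7 genes held it, 21 bases before the start, and 2.98% of windows did. Its window is shown whole because of that match, which is in capitals:

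Ctss, chr3:95526536-95526785, plus strand: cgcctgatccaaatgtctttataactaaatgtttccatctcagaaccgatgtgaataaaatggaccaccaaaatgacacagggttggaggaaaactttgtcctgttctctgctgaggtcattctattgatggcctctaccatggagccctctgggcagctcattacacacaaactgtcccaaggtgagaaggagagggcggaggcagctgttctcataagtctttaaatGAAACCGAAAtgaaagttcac

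Distances are counted from RefSeq starts, which for Ctsd, Ctsl and the second start of Ctsa lie within the gene spans of the GENCODE annotation given below, as do the matches shown for Ctsl and Ctsa and the nearer of those of Ctsd. These matches are letters in a sequence and no binding was measured here.

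Cathepsin mRNAs were among the most abundant transcripts of the sorted cells. Per kilobase of exon, Ctss ranked 28th of the 11362 tested genes with a known length, at 1090.4 ± 227 CPM per kb (mean ± SD over 16 libraries). Length here is the union of all annotated exons of a gene, which can exceed that of its transcripts. Ctsd (786 ± 336) ranked 35th and Ctsb (768 ± 149) 36th on the same scale. Ctsz followed at 313 ± 57.9 CPM per kb, then Ctsl (129 ± 62.5), Ctsa (102 ± 8.65), Ctsc (89.2 ± 17.6), Ctsh (81.8 ± 14.6) and Ctsk (73.2 ± 52.3, rank 446). Of the 8 pairs of neighbours in that order, only Ctsb and Ctsz had ranges that did not overlap. Ctss was above Ctsd in 14 of 16 libraries and Ctsd above Ctsb in 9, so the top 3 did not have a fixed order. The order also depends on the length used: without it the highest means were Ctsb (4649 CPM), Ctsd (1849 CPM) and Ctss (1481 CPM). Together the 9 genes took 0.702% to 1.57% of all counts of a library, and Ctsb alone 39.6% to 45.6% of the summed cathepsin CPM.

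The genes lie on 6 chromosomes of GRCm38, and Ctsk (chromosome 3, 95499256 to 95509362) and Ctss (chromosome 3, 95526786 to 95556403) are close to each other on the plus strand. Ctsd (chromosome 7, 142375911 to 142388038, minus strand) overlaps Gm49369 on its own strand, Ctsl (chromosome 13, 64359337 to 64370890, minus strand) Gm49230, and Ctss the pseudogene Hmgb1-ps5, so reads of these genes may have been shared or left out in counting. Ctsa (chromosome 2, 164832873 to 164841032, plus strand), Ctsb (chromosome 14, 63122462 to 63145923, plus strand), Ctsc (chromosome 7, 88278085 to 88310888, plus strand) and Ctsz (chromosome 2, 174427493 to 174439039, minus strand) overlap genes of the opposite strand. The strand setting of the counting is not given in the sources used here. Ctsh (chromosome 9, 90054152 to 90076089, plus strand) and Ctsk overlap no annotated gene.

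**Figure D1:**
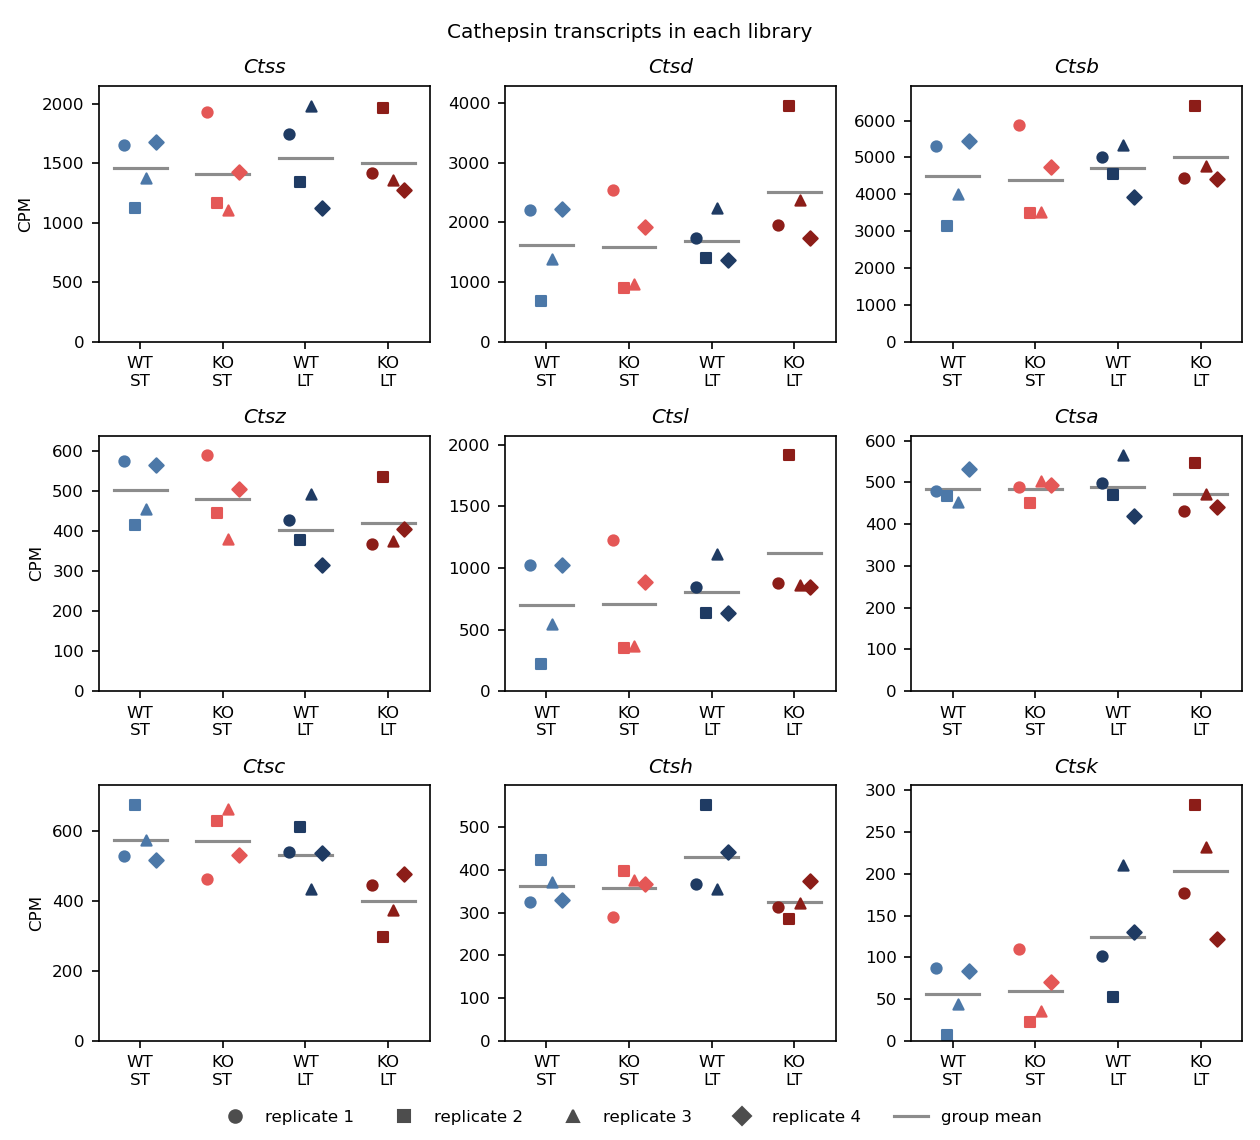
CPM of each cathepsin in the 16 libraries (y axes start at 0, one symbol per replicate number, grey bars are group means, KO stands for IRF5-KO, ST and LT for the diet durations). Ctsk lies between 7.43 and 282 CPM and is highest in IRF5-KO LT-HFD, while Ctsa stays between 419.7 and 565 CPM in all libraries.

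Libraries of the same group differed widely from each other, and they did so in a shared pattern. The aspartic protease Ctsd stood at 2206, 673, 1386 and 2229 CPM in WT ST-HFD replicates 1 to 4 and at 2539, 899, 957 and 1912 CPM in IRF5-KO ST-HFD. On LT-HFD it was 1739, 1404, 2239 and 1376 CPM in WT and 1949, 3953, 2381 and 1740.4 CPM in IRF5-KO. In both ST-HFD groups replicates 1 and 4 were thus the high ones and replicate 2 the lowest, and the highest library of all was IRF5-KO LT-HFD replicate 2.

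Ctsl, a cysteine protease that degrades protein broadly in lysosomes, followed nearly that order with wider steps. Its level was 1022, 219, 546 and 1023 CPM in WT ST-HFD and 1224, 349, 370.1 and 887 CPM in IRF5-KO ST-HFD. On LT-HFD it was 842, 632, 1114 and 630.4 CPM in WT and 875, 1913, 858 and 842 CPM in IRF5-KO, so that the 2nd IRF5-KO library lay far above the other 3. Ctsb, the most counted member, which acts as both endopeptidase and dipeptide-removing enzyme, moved in the same direction by less. It was 5316, 3139.9, 4011 and 5456 CPM in WT ST-HFD, 5873, 3478, 3507 and 4736 CPM in IRF5-KO ST-HFD, and 3937 to 6403 CPM over the LT-HFD libraries, again highest in IRF5-KO replicate 2.

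Ctss, the protease that trims the invariant chain of MHC class II and stays active at neutral pH, ranged from 1107 CPM (IRF5-KO ST-HFD replicate 3) to 1986 CPM (WT LT-HFD replicate 3). Ctsz, a carboxypeptidase that is also secreted, ranged from 315 to 589 CPM. Ctsa, whose protein also protects the lysosomal enzymes Neu1 and Glb1, was the steadiest member in CPM, its highest library 1.35-fold above its lowest, although on the TPM scale, in which counts per length are rescaled to one total, that fold was 2.10 and Ctsh, at 1.79, was the steadiest. For Ctss the fold was 1.79 in CPM and 2.85 in TPM, and for Ctsz 1.87 and 3.10.

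Ctsc and Ctsh ran the other way. Ctsc, the dipeptidyl peptidase that activates serine proteases of mast cell, neutrophil and lymphocyte granules, was 527, 674, 574 and 518 CPM in WT ST-HFD and 462, 628, 661 and 532 CPM in IRF5-KO ST-HFD. Its values were 541, 610.4, 433 and 536 CPM in WT LT-HFD and 445, 296, 375 and 478 CPM in IRF5-KO LT-HFD. The library with the most Ctsd, IRF5-KO LT-HFD replicate 2, thus had the least Ctsc of all 16, and the one with the least Ctsd, WT ST-HFD replicate 2, had the most.

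Ctsh, an aminopeptidase, was 324, 423, 371 and 329 CPM in WT ST-HFD and 288, 398, 377 and 367 CPM in IRF5-KO ST-HFD. It was 367, 552, 356 and 441 CPM in WT LT-HFD and 314, 286, 322 and 374 CPM in IRF5-KO LT-HFD. Replicate 2 was the highest library of the first 3 groups and the lowest of IRF5-KO LT-HFD.

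**Figure D2:**
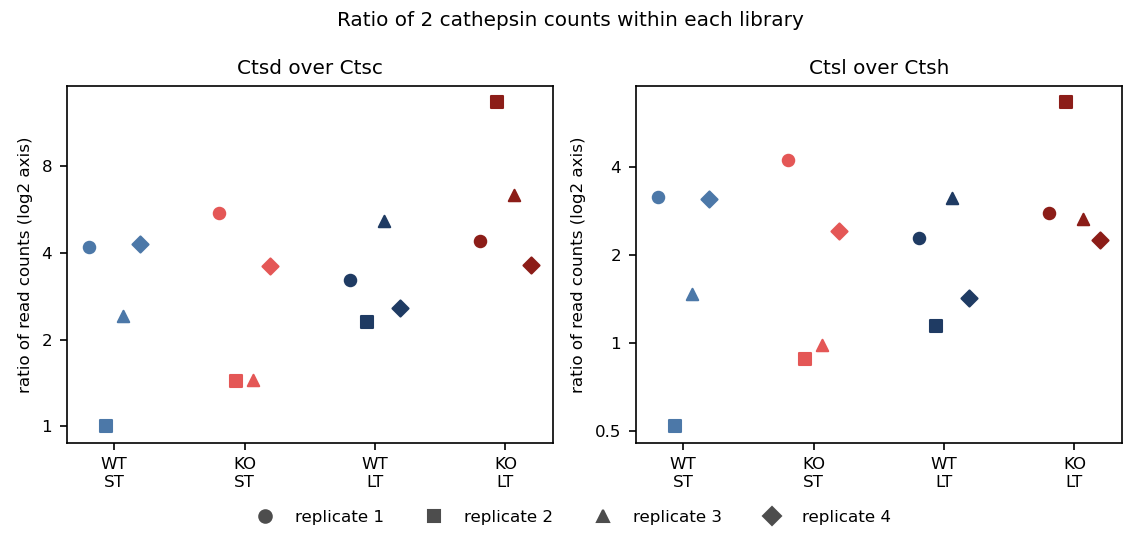
Ratio of Ctsd to Ctsc and of Ctsl to Ctsh read counts within each library (log2 axes, symbols are replicate numbers). Ctsd over Ctsc runs from 0.998 in WT ST-HFD replicate 2 to 13.4 in IRF5-KO LT-HFD replicate 2.

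A ratio of 2 genes in the same library does not depend on library scaling, and its range reflects the changes of both genes. Ctsd over Ctsc was 4.18, 0.998, 2.41 and 4.30 in WT ST-HFD, 5.50, 1.43, 1.45 and 3.59 in IRF5-KO ST-HFD, 3.21, 2.30, 5.17 and 2.57 in WT LT-HFD, and 4.39, 13.4, 6.34 and 3.64 in IRF5-KO LT-HFD. Ctsl over Ctsh spanned 0.517 to 6.70 and had its lowest and highest values in the same 2 libraries. The ratio of Ctsb to Ctsa changed less, from 6.70 to 12.0.

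Likeness was measured as the correlation of log2 CPM over the 16 libraries after removal of each group's mean, which leaves the differences between libraries of a group. These points share library scaling, sort and sequencing depth, and the coefficients are descriptions without a test. Ctsd and Ctsl had Pearson's r of 0.989 (Spearman's rho 0.974), 0.981 without the 2 libraries farthest from the median. Ctsb followed both (r of 0.977 with Ctsd and 0.974 with Ctsl), and Ctss and Ctsz followed each other (0.952). Ctsk had r of 0.914 with Ctsd and 0.655 with Ctsz, the lowest among the 15 pairs of Ctsb, Ctsd, Ctsk, Ctsl, Ctss and Ctsz. Ctsc and Ctsh had r of 0.805 with each other, and of -0.891 and -0.777 with Ctsd. Ctsa had r from 0.430 (Ctsk) to 0.719 (Ctss) with the larger group, and all of these values were lower within ST-HFD than within LT-HFD (8 libraries each). With Ctsb it was 0.504 within ST-HFD and 0.955 within LT-HFD, with Ctsd 0.470 and 0.920, and with Ctss 0.386 and 0.940. The difference was smallest with Ctsk (0.482 and 0.571). Within ST-HFD alone the coefficient of Ctsc with Ctsd was -0.966, and within LT-HFD -0.957.

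**Figure D3:**
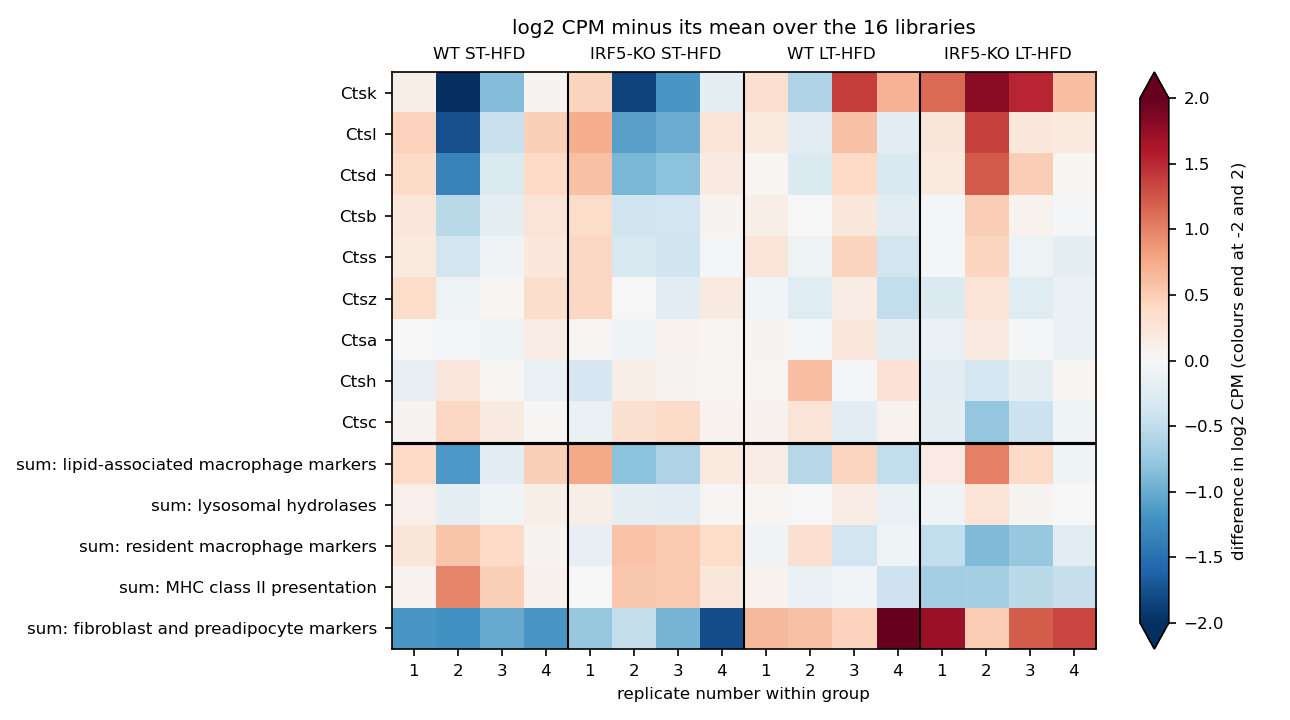
Difference of log2 CPM from its mean over the 16 libraries for the cathepsins and for the summed CPM of 5 gene lists (colours end at -2 and 2, columns are replicates within groups). Ctsb, Ctsd, Ctsk, Ctsl, Ctss, Ctsz and the lipid-associated macrophage sum share their light and dark columns, Ctsc and Ctsh show the opposite, and the fibroblast sum changes between the diet durations.

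The libraries that were high in Ctsd, Ctsl and Ctsb were those high in transcripts of lipid-associated macrophages, the Trem2-expressing cells of obese fat. Summed over 9 markers (Trem2, Cd9, Lpl, Gpnmb, Spp1, Fabp5, Lgals3, Plin2 and Cd36), this list ran from 2555 to 7924 CPM in WT ST-HFD, 3219 to 9580.1 CPM in IRF5-KO ST-HFD, 3813 to 7674 CPM in WT LT-HFD and 5375 to 11501 CPM in IRF5-KO LT-HFD. Its group-centred r was 0.983 with Ctsd, 0.971 with Ctsl, 0.967 with Ctsb, 0.930 with Ctss, 0.914 with Ctsk, 0.868 with Ctsz and 0.635 with Ctsa, against -0.889 with Ctsc and -0.866 with Ctsh. The sum of 6 resident macrophage markers (Mrc1, Cd163, Lyve1, Timd4, Folr2 and Clec10a) had the opposite signs, with r of 0.920 with Ctsc, 0.900 with Ctsh and -0.820 with Ctsd. In bulk RNA a change in the share of a cell type and a change in the RNA per cell cannot be told apart.

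Other lysosomal genes followed the same libraries. A sum of 21 hydrolases of the lysosome had r of 0.975 with Ctsb, 0.950 with Ctsz and 0.942 with Ctsd, and its spread was narrow, from 4730 to 6678 CPM over all libraries. The sum of 7 MHC class II presentation genes (Cd74, H2-Aa, H2-Ab1, H2-Eb1, H2-DMa, H2-DMb1 and Ciita) had r of -0.978 with Ctsd within ST-HFD and 0.103 within LT-HFD, so its relation to the cathepsins was not shared by the durations. For Ctss, which acts in this pathway, the same coefficients were -0.918 and 0.439.

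Among the other 11559 genes tested, those closest to each cathepsin over the 16 libraries, without removal of group means, were named by the 3 highest values of r. Closest to Ctsk were Cd9, a tetraspanin and one of the lipid-associated markers (r = 0.967), the galectin Lgals1 (0.951) and Akr1b8 (0.949). Ctsd had Ctsl (0.985), Slc37a2 (0.979) and the galectin Lgals3 (0.978), Ctsl had Ctsd, the cholesterol ester hydrolase Nceh1 (0.966) and Slc37a2 (0.966), and Ctsb had Lgals3 (0.966), Ctsl (0.963) and the fatty acid binding protein Fabp5 (0.963).

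Ctsc was closest to Sema4a (0.967), the mannose receptor Mrc1 (0.967) and Tgfbi (0.961), and Ctsh to Sft2d2 (0.915), Ninj1 (0.907) and Serinc3 (0.901). Ctss had D8Ertd82e (0.937), Psap (0.926), the precursor of the saposins, and the complement receptor C3ar1 (0.920). For Ctsz they were Hadha (0.950), Cfl1 (0.941) and Diap3 (0.938), and for Ctsa Btbd1 (0.805), Stx7 (0.802) and Nln (0.802).

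With the longer diet, Ctsk rose and Ctsc fell, and the other 7 cathepsins did not pass the test. This comparison of LT-HFD with ST-HFD averaged the change in WT and in IRF5-KO over 8 libraries against 8. It called 43.6% of all 11560 genes, so that 2 of 9 cathepsins is a smaller share than among all genes, and the median log2 fold change was 0.09 for the cathepsins and 0.04 for all genes.

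Ctsk, a strong collagenase known from osteoclasts and also made by fibroblasts and macrophages, was 87.4, 7.43, 44.0 and 84.1 CPM in WT ST-HFD and 110.1, 22.4, 35.8 and 70.7 CPM in IRF5-KO ST-HFD. It reached 102, 52.8, 210.3 and 130.5 CPM in WT LT-HFD and 177, 282, 232 and 122 CPM in IRF5-KO LT-HFD. Every IRF5-KO LT-HFD library was above every ST-HFD library of either genotype, whereas WT LT-HFD replicates 1 and 2 lay within the ST-HFD range. Over both genotypes Ctsk was 2.74-fold higher on LT-HFD (log2 fold change 1.45, standard error 0.40, edgeR adjusted p = 0.00645).

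In IRF5-KO mice the log2 fold change of Ctsk was 1.76 (95% confidence interval 0.58 to 2.94, adjusted p = 0.0231 from edgeR), and in WT mice 1.15 (-0.03 to 2.32, adjusted p = 0.151 from edgeR). The IRF5-KO groups did not overlap, as held for 14.3% of all genes in that direction, and the WT groups did. The call in IRF5-KO was lost without IRF5-KO ST-HFD replicate 2 or 3 or without IRF5-KO LT-HFD replicate 2 or 3, where its edgeR adjusted p lay between 0.0516 and 0.0717. The call over both genotypes was kept in all 16 fits that each left out 1 library (log2 fold change 1.26 to 1.70).

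Ctsc was 574 ± 71.7 CPM in WT ST-HFD, 571 ± 91.2 in IRF5-KO ST-HFD, 529.9 ± 73.2 in WT LT-HFD and 399 ± 80.6 in IRF5-KO LT-HFD (SD, n = 4 each). The IRF5-KO groups touched in 1 library only, replicate 4 on LT-HFD at 478 CPM against replicate 1 on ST-HFD at 462 CPM. Its log2 fold change with duration was -0.52 in IRF5-KO (standard error 0.16, adjusted p = 0.0166 from edgeR) and -0.11 in WT (standard error 0.15, adjusted p = 0.641 from edgeR). Over both genotypes Ctsc fell by 0.32 on the log2 scale (standard error 0.11, adjusted p = 0.0266 from edgeR). That call was lost without WT ST-HFD replicate 2, IRF5-KO ST-HFD replicate 2 or 3, or WT LT-HFD replicate 3, with an edgeR adjusted p of at most 0.0579. In IRF5-KO alone it was lost without IRF5-KO ST-HFD replicate 3 (adjusted p = 0.0580 from edgeR) or IRF5-KO LT-HFD replicate 2 (adjusted p = 0.0539 from edgeR).

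**Figure D4:**
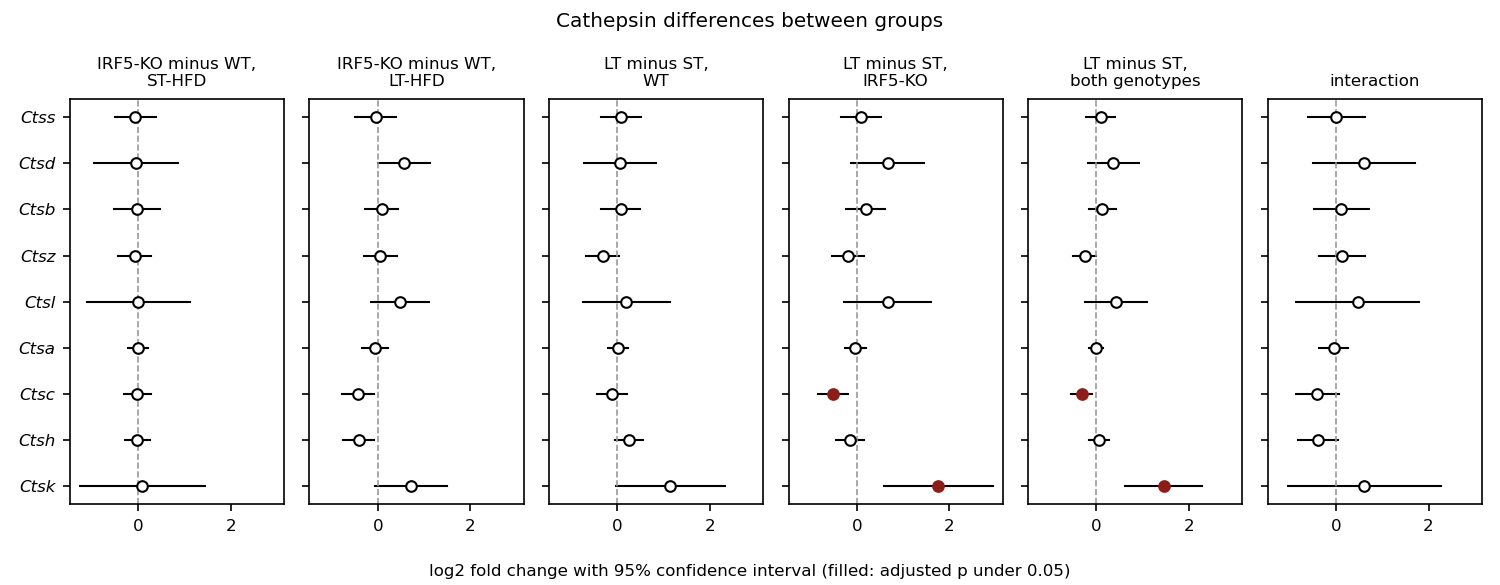
log2 fold changes of the 9 cathepsins with 95% confidence intervals in the 6 comparisons (filled points have an adjusted p under 0.05). Filled points are Ctsk and Ctsc in the duration comparisons of IRF5-KO and of both genotypes, and the intervals of Ctsk, Ctsl and Ctsd are the widest.

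Of the remaining members, Ctsz had a log2 fold change of -0.25 over both genotypes (95% confidence interval -0.50 to -0.01, adjusted p = 0.0915 from edgeR), from 502 ± 79.6 and 479.9 ± 89.1 CPM on ST-HFD in WT and IRF5-KO to 403 ± 75.1 and 420.2 ± 77.4 CPM on LT-HFD. It passed the test in 3 of 16 fits with 1 library left out (without IRF5-KO ST-HFD replicate 3, WT LT-HFD replicate 3 or IRF5-KO LT-HFD replicate 2). Ctsd, at 0.36 (-0.19 to 0.92), and Ctsl, at 0.43 (-0.24 to 1.10), had intervals that reach from a small decrease to a large increase on LT-HFD. Without IRF5-KO LT-HFD replicate 2 they were 0.21 and 0.24, and without IRF5-KO ST-HFD replicate 1 they were 0.53 and 0.63. The intervals of Ctsb (0.13), Ctss (0.09), Ctsh (0.05) and Ctsa (-0.01) lay within -0.22 and 0.43 on the log2 scale. With 1 library left out, the value of Ctsb ran from 0.06 to 0.22 and that of Ctss from 0.01 to 0.19.

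Within each genotype, 2 of 9 cathepsins were called in IRF5-KO, where 32.8% of all genes were, and 0 of 9 in WT, where 25.3% were. In WT, edgeR gave 0 cathepsins an unadjusted p under 0.05, against 35.9% of all genes, and DESeq2 called 0. Whether the changes with duration differed between genotypes was tested as the interaction, which called 0 of 9 cathepsins and 0% of all genes in edgeR, with 0 cathepsins and 454 genes (3.93%) at an unadjusted p under 0.05, and DESeq2 called 0 cathepsins. The largest interaction terms were 0.62 for Ctsk (95% confidence interval -1.03 to 2.26) and 0.61 for Ctsd (-0.50 to 1.72), and for Ctsc it was -0.40 (-0.87 to 0.06). Leaving out 1 library moved that of Ctsk between 0.30 (without WT ST-HFD replicate 1) and 1.09 (without IRF5-KO ST-HFD replicate 1). For Ctsd the range was 0.30 to 0.93 and for Ctsl 0.08 to 0.87, each without IRF5-KO LT-HFD replicate 2 and IRF5-KO ST-HFD replicate 1.

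Transcripts that mark cells other than macrophages also differed between the durations. All 9 fibroblast and preadipocyte markers were higher on LT-HFD, with the smallest p-values for Lum (log2 fold change 3.41), Pdgfra (3.33), Dcn (3.46) and Col1a2 (2.41), all with an adjusted p of at most 3.89e-07 from edgeR. Their sum was 1009 to 1163 CPM in WT ST-HFD, 682 to 1670.5 CPM in IRF5-KO ST-HFD, 3189 to 9333 CPM in WT LT-HFD and 3312 to 7641 CPM in IRF5-KO LT-HFD, with none of the 9 at 0 in any library. Ctsk followed this sum with r of 0.584 over the 16 libraries and of -0.136 after removal of group means. Within LT-HFD (8 libraries, group means removed) the coefficient of the sum was -0.121 with Ctsk, but -0.881 with Ctsa, -0.874 with Ctsb, -0.873 with Ctsz, -0.811 with Ctss, -0.701 with Ctsd and -0.691 with Ctsl. Without the 2 LT-HFD libraries highest in these markers (WT replicate 4 and IRF5-KO replicate 1, an alternative chosen after the data were seen), Ctsk had a log2 fold change of 1.48 (adjusted p = 0.0151 from edgeR) and Ctsc of -0.34 (adjusted p = 0.0348 from edgeR). Since every LT-HFD library was above every ST-HFD library in the fibroblast sum, its part in the duration result for Ctsk cannot be told apart from the diet.

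**Figure D5:**
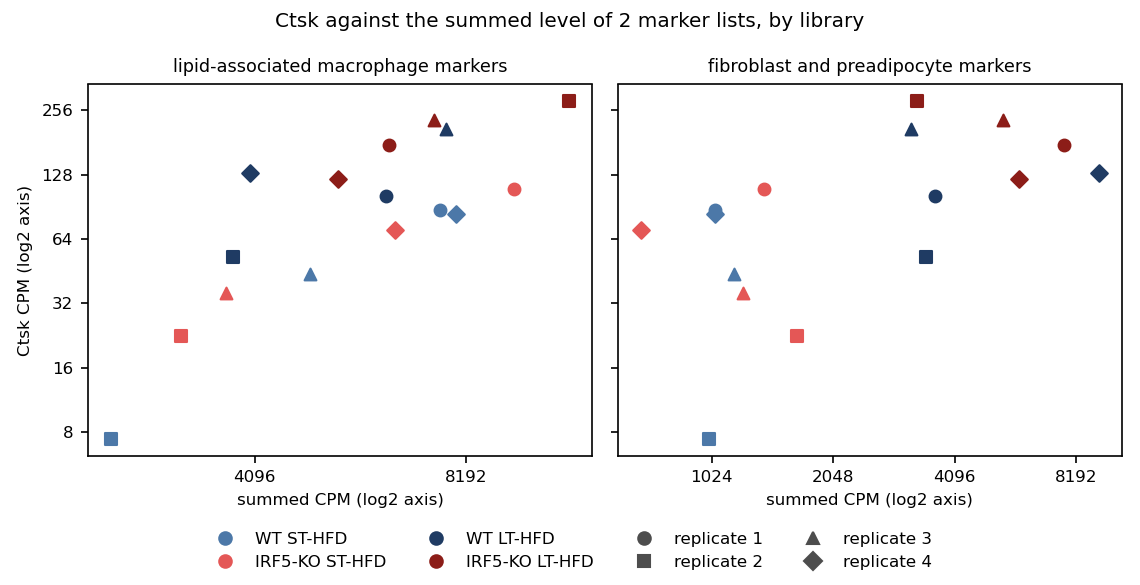
Ctsk CPM against the summed CPM of lipid-associated macrophage markers (left) and of fibroblast and preadipocyte markers (right) in the 16 libraries (log2 axes, colours are groups, symbols replicate numbers). In each group the library with the lowest left sum also had the least Ctsk, and the right sum separates the LT-HFD libraries (3189 CPM and above) from the ST-HFD libraries (1670.5 CPM and below).

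Markers of macrophage subtypes were called in 83.3% of the resident and 22.2% of the lipid-associated list, beside 43.6% of all genes. Of 6 resident markers, 4 fell (log2 fold changes of Lyve1 -2.12, Cd163 -1.40, Timd4 -1.39 and Mrc1 -0.37) and Clec10a rose (0.30), while scaling by library totals alone called 5 lower, Folr2 added, and 0 higher. Their sum was 4069 to 5811 CPM in WT ST-HFD, 3516 to 5868 CPM in IRF5-KO ST-HFD, 3005 to 4933 CPM in WT LT-HFD and 2144 to 3408 CPM in IRF5-KO LT-HFD, and its part in the lower Ctsc of the last group was not tested. Of the 9 lipid-associated markers, Cd9 (1.08, adjusted p = 0.00729 from edgeR) and Trem2 (0.81, adjusted p = 0.0269 from edgeR) rose, the latter not under scaling by totals alone, and 7 did not pass the test. Of 8 general macrophage markers, 5 fell, among them Csf1r (-0.75), Itgam (-0.58), Cd68 and Mertk, and Adgre1 (0.33) rose, where scaling by totals alone called 6 lower, Cd14 added, and 0 higher.

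The other marker lists were at lower levels. Mast cell markers summed to 1.27 to 3.95 CPM in ST-HFD and 5.94 to 26.8 CPM in LT-HFD libraries, and the 2 that were tested, Tpsb2 (4.05) and Cma1 (3.16), both rose, with 0 to 28 counts in a library. Of the 7 granule proteases that Ctsc is known to activate, Cma1 was the only one with enough counts to test. Of 3 tested monocyte markers, Plac8 and Vcan rose and Ccr2 fell, with Vcan called under TMM scaling alone. One dendritic cell marker of 3 tested (Cd209a), the 1 neutrophil marker tested (Csf3r) and 1 adipocyte marker of 4 tested (Cidec) fell, while 0 of 1 lymphocyte and 0 of 4 endothelial markers passed edgeR's test, had an unadjusted p under 0.05 or were called by DESeq2. The part of these lists in the cathepsin values was not tested.

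The other genes of the cathepsin system are read beside the 43.6% of all genes called with duration. Of 13 further cathepsins, Ctso (0.75, adjusted p = 7.34e-05 from edgeR) and Ctsf (0.47, adjusted p = 0.00316 from edgeR) were the only ones with enough counts, at 24.7 to 65.2 and 22.1 to 53.8 CPM, and both rose. Of 8 inhibitors, the 2 that were tested rose, the secreted cystatin Cst3 (0.33, adjusted p = 0.00971 from edgeR) and the cytosolic cystatin Cstb (0.51, adjusted p = 0.00774 from edgeR). The list of 10 genes for cathepsin processing and delivery also held Neu1 and Glb1, which Ctsa protects. Of these 10, M6pr, the smaller mannose 6-phosphate receptor, rose (0.39, adjusted p = 0.00255 from edgeR). The other 9 did not pass, among them Lgmn (-0.01), the legumain that cleaves cathepsin precursors.

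Of the 21 lysosomal hydrolases, 8 rose and 2 fell, with a median log2 fold change of 0.25, and 5 rose under scaling by totals alone. The share called was 47.6%, near the 43.6% of all genes. Naglu (0.63) and the lysosomal phospholipase Pla2g15 (0.43) were among those that rose, and Man2b1 (-0.32) was among those that fell. Of 15 genes of the lysosomal membrane and proton pump, 33.3% were called: Lamp2 (0.59), Cd63 (0.69), Atp6ap1 (0.31) and Atp6v1a (0.62) rose and Cd68 fell (-0.41), as did Lamp1 under scaling by totals alone. Of the 4 MiT/TFE factors, 2 fell, Tfe3 (-0.89, adjusted p = 2.18e-08 from edgeR) and Tfeb (-0.34, adjusted p = 0.0231 from edgeR). Of 7 MHC class II presentation genes, 6 fell, led by Ciita (-1.37), the invariant chain gene Cd74 (-1.17) and H2-Eb1 (-0.59), while the invariant chain proteases Ctss and Ctsl did not pass the test.

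Between genotypes no cathepsin passed the test at either duration. On ST-HFD the 9 log2 fold changes of IRF5-KO against WT lay between -0.07 (Ctsz) and 0.09 (Ctsk), 0 of 9 were called in edgeR, where 0.00913% of all genes were, and 0 had an unadjusted p under 0.05, where 1.84% did. DESeq2 called 0 as well. The means were close, for example 1624 ± 745 and 1577 ± 792 CPM for Ctsd in WT and IRF5-KO (SD, n = 4 each), but the replicates were so far apart that the 95% confidence interval of its log2 fold change ran from -0.95 to 0.86. As an alternative, the replicate number was fitted as a block, although some differently numbered ST-HFD libraries were as alike as same-numbered ones. With it the interval of Ctsd was -0.36 to 0.28. That of Ctsl was -0.34 to 0.41 in place of -1.10 to 1.11, and that of Ctsk -0.31 to 0.66 in place of -1.26 to 1.44. In this fit edgeR gave 0 of 9 cathepsins an unadjusted p under 0.05. Without the block, narrower intervals were those of Ctsa (-0.21 to 0.21), Ctsh (-0.29 to 0.25) and Ctsc (-0.30 to 0.27). Ctss had -0.06 (-0.50 to 0.38).

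On LT-HFD the log2 fold changes lay between -0.42 (Ctsc) and 0.71 (Ctsk) and were not called, with 0 of 9 in edgeR and in DESeq2, where 0.0182% of all genes were in edgeR. Unadjusted p under 0.05 was found for Ctsh (log2 fold change -0.41, adjusted p = 0.853 from edgeR), Ctsc (-0.42, adjusted p = 0.853 from edgeR) and Ctsd (0.57, adjusted p = 0.853 from edgeR). That is 3 of 9, where 5.72% of all genes had such a p. These 3 genes varied together between libraries of a group, so they do not count as 3 separate results. Their group-centred r was 0.805 for Ctsc with Ctsh, and -0.891 and -0.777 for these 2 with Ctsd. Ctsh was 429 ± 90.0 CPM in WT and 324 ± 36.8 CPM in IRF5-KO, and Ctsd 1689 ± 402 and 2506 ± 1001 CPM (SD, n = 4 each), and in each case the groups overlapped. The largest difference was that of Ctsk (0.71, 95% confidence interval -0.06 to 1.49), which was 0.46 without WT LT-HFD replicate 2 and 1.10 without WT LT-HFD replicate 3. Leaving out 1 library at a time moved Ctsd between 0.25, without IRF5-KO LT-HFD replicate 2, and 0.75, without WT LT-HFD replicate 3, and moved Ctsl between 0.08 and 0.69 for the same 2 libraries. It moved Ctsh between -0.49, without IRF5-KO LT-HFD replicate 4, and -0.27, without WT LT-HFD replicate 2. Ctsc moved between -0.52, without IRF5-KO LT-HFD replicate 4, and -0.30, without IRF5-KO LT-HFD replicate 2. Ctss stood at -0.05 (-0.48 to 0.39) and Ctsb at 0.09 (-0.27 to 0.44).

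Of the 105 list genes tested on ST-HFD edgeR called 0 between genotypes, 3 had an unadjusted p under 0.05 and DESeq2 called 0. On LT-HFD edgeR called 0 of 108, 21 had an unadjusted p under 0.05 and DESeq2 called 1 (Ciita, the activator of MHC class II genes). All 9 lipid-associated macrophage markers had a log2 fold change above 0 on LT-HFD, from 0.38 (Cd36) to 0.68 (Spp1), 1 of them (Trem2) with an unadjusted p under 0.05, and the ranges of their sum overlapped in WT and IRF5-KO. Their part in the values of Ctsd, Ctsk and Ctsl was not tested. All 6 resident macrophage markers, whose sum had r of 0.920 with Ctsc and 0.900 with Ctsh, had a log2 fold change below 0 on LT-HFD, from -0.94 (Timd4) to -0.44 (Clec10a), each with an unadjusted p under 0.05, as 5.72% of all genes had, and an edgeR adjusted p of 0.853. Their part in the lower Ctsc and Ctsh values was not tested. On LT-HFD all 7 MHC class II presentation genes had a log2 fold change below 0 (median -0.41), and their summed level was 8342 to 11738 CPM in WT and 6974 to 8072 CPM in IRF5-KO.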

How the data were processed

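Total RNA of sorted F4/80+ ATMs was sequenced as stranded, ribosomal RNA-depleted libraries. Per the labels and the study's methods, the authors aligned reads with STAR 2.7.3a to mm10 (fastp 0.19.11 is also listed) and deposited raw counts per gene, without normalisation. The annotation release and strand setting are not given in the sources used here. R 4.3.3 and edgeR 4.0.16 served for all main tests on counts (filterByExpr, TMM, quasi-likelihood test, Benjamini-Hochberg adjustment over all genes tested). Genotypes were compared within each duration on 8 libraries (10958 and 10987 genes tested). Durations and the interaction used 1 fit over 16 libraries (11560 genes), from which CPM values were taken. Log2 CPM for correlations used a prior count of 2. Exon lengths and coordinates came from GENCODE vM21 on GRCm38, and promoters from RefSeq.

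The labels do not tie each library to a mouse, although the study's methods give group sizes in mice, so p-values measure strictly the spread between libraries. No 2 libraries of a group agreed within sampling noise. Intervals cover the spread between libraries, and depth was 3279332 to 4958131 counts. Cathepsins and lists were chosen with earlier results of these data known. Named list genes were up to 4 with the smallest p among those called, and any others were chosen after their values were seen. Some genes that this rule picks are not reported here. Same-numbered WT and IRF5-KO libraries of ST-HFD had positive correlations of their deviations (0.179 to 0.483 over 9765 genes). Differently numbered ones ran from -0.509 to 0.467, so the correlations do not settle that the numbers mark pairs. The main tests used no block, and a block by replicate number was an alternative. For LT-HFD (-0.151 to 0.233) and between durations the same-numbered correlations were not all positive. Alternatives were DESeq2 1.42.0, other scalings, no filter, a replicate block, another set of libraries and leaving out each library. The fits were also run on simulated counts, and the outcome is not reported here.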

Additional observations from a re-analysis of the deposited data

Results flagged for a closer look

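Of 36 sets of 4 libraries (9 cathepsins in 4 groups), 1 held a library far from the other 3 by Dixon's ratio, and chance gives about 1 in 20. Ctsl in IRF5-KO LT-HFD replicate 2 was at 1913 CPM against 842 to 875 CPM in the other 3 (ratio 0.970 against a critical value of 0.829). The same library was the highest of its group in Ctsb, Ctsd, Ctsk, Ctss, Ctsz and Ctsa and the lowest of all 16 in Ctsc and Ctsh.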

How the results depend on the processing

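Calls of cathepsins changed only when single libraries were left out, which moved the number called over both genotypes between 1 and 3 and in IRF5-KO between 0 and 2 (the libraries are named with the results). DESeq2's size factors, library totals alone, no filter, DESeq2's Wald test, other sets of libraries and the replicate block changed no call of a cathepsin. With the replicate block Ctsk had log2 fold changes of 1.67 over both genotypes and 2.08 in IRF5-KO, and Ctsc of -0.31 and -0.51. For ST-HFD the block called 2 genes between genotypes. The labels give same-numbered libraries no tie other than the number.

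Between genotypes on ST-HFD, 1 gene was called in all, and 2 without a filter, by DESeq2's Wald test, with the block or in a fit over 16 libraries. On LT-HFD 2 genes were called, 1 with library totals alone, 6 without a filter, 6 by DESeq2's Wald test, 0 with the block, 0 without the 2 libraries highest in fibroblast markers and 0 to 2 with 1 library left out. Library totals alone shifted the duration calls over all genes from 2539 higher and 2498 lower to 2018 and 2842 over both genotypes, and from 1401 and 1527 to 1002 and 1858 in WT.

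Values near 0 changed sign under some settings, and none of these was called. Library totals alone gave, for genotype on ST-HFD, Ctsl -0.016, for duration in WT, Ctsa -0.072, Ctsb -0.024, Ctsd -0.037 and Ctss -0.00077, for duration over both genotypes, Ctsh -0.011, and for the interaction, Ctsa 0.0071. Without a filter Ctsl was -0.0019 (genotype, ST-HFD) and Ctsa -0.0050 (duration, WT). The fit over 16 libraries gave Ctsa 0.0045 (genotype, ST-HFD) and DESeq2's Wald test Ctss -0.00041 (interaction). Without the 2 fibroblast-high libraries Ctsa was 0.0077 (duration, IRF5-KO) and 0.048 (both genotypes), and Ctss -0.094 (interaction).

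With 1 library left out, log2 fold changes that crossed 0 on ST-HFD between genotypes were Ctsa (-0.033 to 0.052), Ctsb (-0.21 to 0.079), Ctsc (-0.083 to 0.071), Ctsd (-0.38 to 0.15), Ctsh (-0.075 to 0.063), Ctsk (-0.40 to 0.40), Ctsl (-0.40 to 0.25), Ctss (-0.26 to 0.047) and Ctsz (-0.19 to 0.034). On LT-HFD they were Ctsa (-0.14 to 0.044), Ctsb (-0.062 to 0.17), Ctss (-0.21 to 0.11) and Ctsz (-0.088 to 0.19). For duration in WT they were Ctsa (-0.064 to 0.082), Ctsb (-0.069 to 0.19), Ctsd (-0.20 to 0.26), Ctsl (-0.10 to 0.44) and Ctss (-0.060 to 0.21), in IRF5-KO Ctsa (-0.11 to 0.0052) and Ctss (-0.062 to 0.29), and over both Ctsa (-0.050 to 0.024) and Ctsh (-0.022 to 0.091). For the interaction they were Ctsa (-0.13 to 0.028), Ctsb (-0.023 to 0.28), Ctss (-0.15 to 0.20) and Ctsz (-0.012 to 0.24). The cause of these moves was not tested. On a TPM scale the fold between the highest and lowest library was 2.10 for Ctsa, 2.85 for Ctss and 3.10 for Ctsz.

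Depth limits Ctsk most, with 32 counts in its lowest library, and without the block the intervals of Ctsd, Ctsk and Ctsl between genotypes were the widest of the 9. On ST-HFD the block narrowed that of Ctsd from -0.95 to 0.86 to -0.36 to 0.28.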
